A study of Mus musculus with 6 samples.

Results

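Fgfr3, Ptch1, Gli1, Chad, Prg4 and Cilp are 6 genes of growth plate and joint cartilage, taken by their gene symbol from the probe sets that the platform's annotation assigns to a single gene. Each of the 6 genes had 1 such probe set, out of 5780 genes measured on the arrays in this way. RNA came from the radii and ulnae, the long bones of the forearm, of newborn mice of strain 129sv. The tested animals carried the del175k mutation of Tnni2 and the comparison animals were their wild-type littermates, with 3 single-colour Affymetrix arrays for each genotype. Tnni2 encodes troponin I of fast skeletal muscle, which regulates contraction. The labels do not give the zygosity of the mutants, the sex of the mice or whether each array stands for 1 mouse. P-values therefore set a group difference only against the spread among these arrays. Part of that spread may be technical, and it may not be the spread between mice.

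A long bone lengthens at its growth plate, where chondrocytes divide in columns, stop dividing, enlarge and are replaced by bone. Indian hedgehog, made by chondrocytes that are about to enlarge, acts on cells that carry the receptor Ptch1, and both Ptch1 and the transcription factor Gli1 are induced by that signal. Fgfr3 is a receptor tyrosine kinase that restrains the division of growth plate chondrocytes, and activating mutations of the human gene cause achondroplasia. Chad encodes chondroadherin, a leucine-rich matrix protein that binds collagen and integrins. Prg4 encodes lubricin, the lubricant of joint surfaces and synovial fluid, and Cilp encodes cartilage intermediate layer protein, a matrix protein that in human cartilage lies between the surface and the deep layer.

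All 6 genes had a higher mean in mutant than in wild-type bone, by 1.31-fold for Gli1 up to 1.89-fold for Prg4, and none of the differences passed over all probe sets. A higher mean in mutants was also seen in 56.7% of all probe sets. The genes were proposed with earlier results of these data known, so their shared direction is no independent evidence. On the linear intensity scale all mutant arrays lay above all wild-type arrays for Fgfr3, Gli1 and Cilp, as in 9.18% of all probe sets. For Ptch1, Chad and Prg4 the groups overlapped, in each case because mutant replicate 3 lay within the wild-type range.

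Promoter sequences were at hand from RefSeq (build GRCm38.p6) for 4 of the 6 genes, Fgfr3, Ptch1, Chad and Cilp. The 250 bases before a transcription start are shown for 3 of them, a receptor gene and 2 matrix genes, because the letters just before the start differ between them. They lie at chr5:33721474-33721723 (plus strand, Fgfr3), chr11:94564797-94565046 (plus strand, Chad) and chr9:65264930-65265179 (plus strand, Cilp). Capitals mark the TATA box letters TATAAA, the related letters TATATAA and the GC box letters GGGCGG, each searched on both strands, so that a GC box on the opposite strand reads CCGCCC.
Fgfr3: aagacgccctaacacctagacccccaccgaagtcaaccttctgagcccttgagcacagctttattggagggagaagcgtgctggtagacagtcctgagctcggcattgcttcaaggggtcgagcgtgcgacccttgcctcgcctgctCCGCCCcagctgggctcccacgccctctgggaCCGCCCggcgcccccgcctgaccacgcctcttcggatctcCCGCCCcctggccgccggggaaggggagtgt
Chad: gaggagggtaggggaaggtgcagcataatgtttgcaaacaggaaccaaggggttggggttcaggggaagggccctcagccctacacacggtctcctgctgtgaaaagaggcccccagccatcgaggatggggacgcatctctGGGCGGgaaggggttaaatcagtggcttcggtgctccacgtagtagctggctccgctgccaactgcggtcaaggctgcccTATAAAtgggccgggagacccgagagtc
Cilp: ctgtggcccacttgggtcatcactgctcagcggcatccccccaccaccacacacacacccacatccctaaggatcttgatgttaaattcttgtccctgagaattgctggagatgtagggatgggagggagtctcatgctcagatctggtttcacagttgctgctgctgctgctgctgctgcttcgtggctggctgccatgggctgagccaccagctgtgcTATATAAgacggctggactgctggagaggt
The Chad window held TATAAA from 28 to 23 bases before the start, letters found in 12.4% of 32841 such windows of mouse genes. The Cilp window held TATATAA from 30 to 24 bases before the start, letters found in 3.04% of windows. GC boxes, present in 32.7% of windows, were found 3 times in this Fgfr3 window and 1 time in that of Chad. The Fgfr3 window shown had 19 CG dinucleotides, more than 80.3% of windows, while that of Chad had 10 and that of Cilp had 3, against a median of 6. A second Fgfr3 window, before another start (chr5:33722056-33722305, plus strand), is not shown. It had 24 CG dinucleotides, more than 88.0% of windows, with GC boxes on the same strand from 87 to 82 and from 82 to 77 bases before its start. The GLI binding letters GACCACCCA, searched on both strands, were in 0.225% of windows and in none of the windows of the 4 genes. These motifs were chosen after the sequences were read, they do not overlap in the windows shown, and a match describes letters only.

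Values are summarised intensities on a linear scale, without known scaling between arrays. Wild-type replicate 1 stood apart, with its typical (median) probe set 0.30 log2 units under the mean of the remaining arrays (-0.30), where the other 5 arrays lay between 0.01 and 0.09. This array was the lowest of the 6 for Fgfr3, Ptch1, Gli1, Chad and Prg4, so their differences are also given without it. The deposited table holds only probe sets with an intensity of at least 20 on 3 or more arrays, and the 6 genes had 0 values under 20, although Gli1 lay close to that level. Bone and cartilage markers were bright on all arrays, with Col1a1, the main collagen of bone, at 7321 to 7785 in mutants and 6552 to 7807 in wild-type, and Col2a1, the main collagen of cartilage, at 3330 to 3715 in mutants and 2540 to 4002 in wild-type. In a bulk sample more cells of a type and more RNA per cell cannot be told apart.

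Fgfr3, the receptor that restrains chondrocyte division, had intensities of 119, 98.5 and 96.0 in mutant replicates 1 to 3, against 66.4, 90.2 and 82.2 in wild-type replicates 1 to 3. All mutant arrays lay above all wild-type arrays, but the gap between the nearest pair was small, with mutant replicate 3 at 96.0 and wild-type replicate 2 at 90.2. Fgfr3 averaged 104 ± 12.4 in mutants and 79.6 ± 12.1 in wild-type (SD, n = 3 each), a log2 difference of 0.40 with a 95% interval from -0.07 to 0.86 (limma adjusted p = 0.708). Without wild-type replicate 1 the log2 difference was 0.27.

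Ptch1, the hedgehog receptor, had intensities of 181, 114 and 92.3 in mutant replicates 1 to 3, against 50.4, 88.4 and 101 in wild-type replicates 1 to 3. The highest value was in mutant replicate 1 and the lowest in wild-type replicate 1, and the other 4 arrays lay close together, with mutant replicate 3 below wild-type replicate 3. Ptch1 averaged 129 ± 46.3 in mutants and 79.9 ± 26.4 in wild-type (SD, n = 3 each), a log2 difference of 0.69 with an interval from -0.04 to 1.42 (limma adjusted p = 0.686). Leaving out wild-type replicate 1 gave a log2 difference of 0.39 and leaving out mutant replicate 1 gave 0.42, so these 2 arrays carried much of its size.

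Gli1, the transcription factor induced by hedgehog signals, had intensities of 32.7, 26.7 and 27.5 in mutant replicates 1 to 3, against 21.3, 21.5 and 23.5 in wild-type replicates 1 to 3. The groups were separate and the wild-type arrays lay close together, at the dim end of the table. Gli1 averaged 29.0 ± 3.22 in mutants and 22.1 ± 1.25 in wild-type (SD, n = 3 each), a log2 difference of 0.39 with an interval from -0.04 to 0.81 (limma adjusted p = 0.701). Without wild-type replicate 1 it was 0.36. A fold at this brightness depends on background handling that is not given in the sources used here.

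Chad, the collagen-binding matrix protein, had intensities of 338, 374 and 201 in mutant replicates 1 to 3, against 172, 222 and 213 in wild-type replicates 1 to 3. Mutant replicates 1 and 2 lay well above the rest, and mutant replicate 3 lay between the wild-type values. Chad averaged 304 ± 91.1 in mutants and 202 ± 26.6 in wild-type (SD, n = 3 each), a log2 difference of 0.55 with an interval from -0.04 to 1.14 (limma adjusted p = 0.691). Leaving out wild-type replicate 1 gave 0.44 and leaving out mutant replicate 3 gave 0.82, where the adjusted p was 0.358.

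Prg4, which encodes lubricin, had intensities of 137, 147 and 49.9 in mutant replicates 1 to 3, against 42.8, 64.2 and 53.9 in wild-type replicates 1 to 3. Mutant replicates 1 and 2 were more than 2 times as bright as any wild-type array, while mutant replicate 3 lay below wild-type replicates 2 and 3. Prg4 averaged 111 ± 53.1 in mutants and 53.6 ± 10.7 in wild-type (SD, n = 3 each), a log2 difference of 0.92 with an interval from 0.05 to 1.78 (limma adjusted p = 0.667). When wild-type replicate 1 was left out it was 0.77. Without mutant replicate 3 it was 1.42 with an adjusted p of 0.115, and without mutant replicate 2 it was 0.64 with an adjusted p of 0.963.

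Cilp, the matrix protein of the intermediate layer, had intensities of 86.6, 62.7 and 72.2 in mutant replicates 1 to 3, against 51.5, 44.6 and 53.9 in wild-type replicates 1 to 3. The groups were separate, and the lowest array was wild-type replicate 2, not replicate 1. Cilp averaged 73.8 ± 12.0 in mutants and 50.0 ± 4.81 in wild-type (SD, n = 3 each), a log2 difference of 0.55 with an interval from 0.09 to 1.02 (limma adjusted p = 0.657). Its unadjusted p of 0.0234 was the smallest of the 6 genes, and its log2 difference was 0.58 without wild-type replicate 1.

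**Figure D1:**
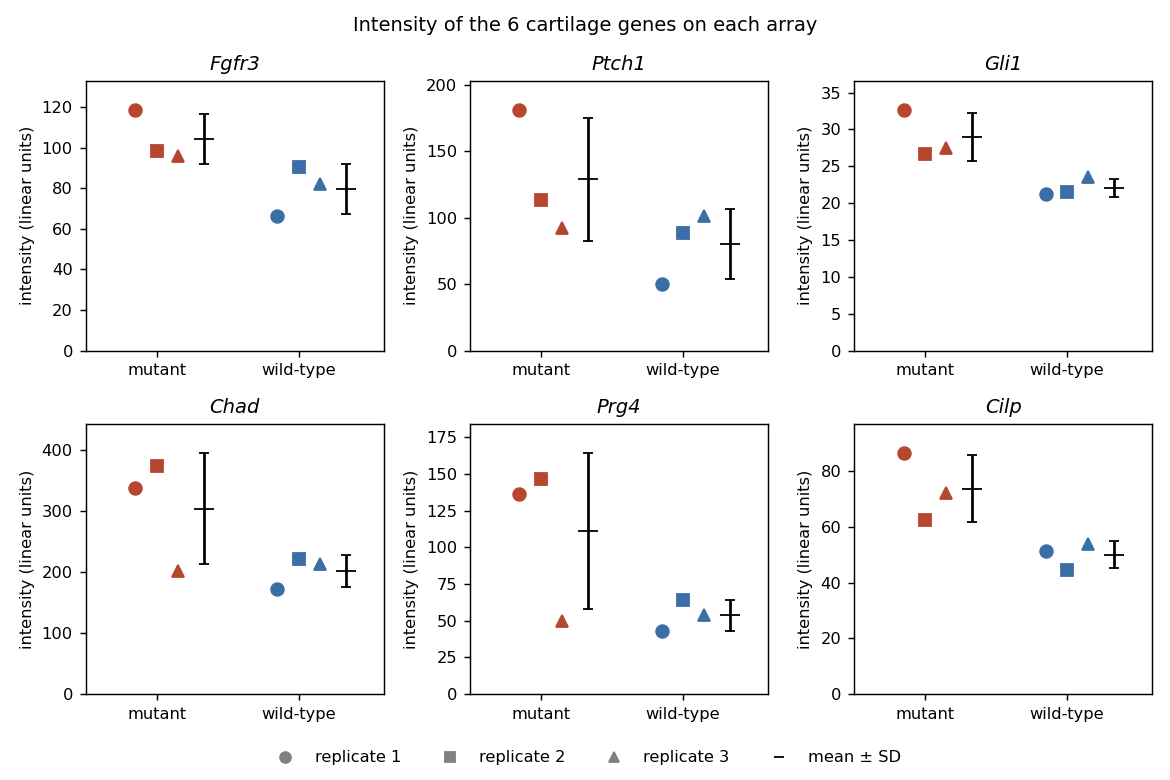
Linear intensity of each gene on the 6 arrays, with mutant arrays on the left and wild-type arrays on the right of each panel; symbols mark replicates 1 to 3 and the black bar is the mean ± SD of 3 arrays. The groups are separate for Fgfr3, Gli1 and Cilp, and mutant replicate 3 lies among the wild-type arrays for Ptch1, Chad and Prg4.

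Of the 6 genes 0 passed an adjusted p of 0.05 with limma, as did 0 of all 8997 probe sets (0%), where the smallest adjusted p was 0.155. At an unadjusted p under 0.05, 2 of the 6 genes were higher in mutants, Prg4 and Cilp, against 5.74% of all probe sets, and 0 were lower, against 1.7%. Prg4 was no longer under that level after median centring (limma unadjusted p = 0.0552), after quantile normalization (0.0602), after centring on the cartilage genes (0.0613), or when wild-type replicate 1 (0.132), wild-type replicate 3 (0.0671), mutant replicate 1 (0.136) or mutant replicate 2 (0.143) was left out. Cilp was no longer under it after centring on the cartilage genes (limma unadjusted p = 0.157), or when wild-type replicate 2 (0.0826), mutant replicate 1 (0.0998) or mutant replicate 3 (0.0501) was left out. Of all probe sets, 288 were higher and 307 lower at that level in the fit that left out wild-type replicate 1. All mutant arrays lay above all wild-type arrays for 3 of the 6 genes, against 9.18% of all probe sets. A higher mean in mutants, seen in all 6 genes, was also seen in 56.7% of all probe sets. The genes were proposed with earlier results of these data known, so these counts describe them and are no independent evidence of their direction.

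The profiles over the arrays were of different kinds. Chad and Prg4 were high in mutant replicates 1 and 2, while Fgfr3, Gli1 and Cilp were above every wild-type array in all 3 mutants. Among 6397 probe sets named by another gene, the closest match to the log2 profile of Chad over the 6 arrays was Prg4 (Pearson r = 0.993), and the closest match to Prg4 was Chad. The next match of both was Fkbp5, which encodes a co-chaperone of steroid receptors (r = 0.984 with each). Fkbp5 had intensities of 225, 214 and 34.6 in mutant replicates 1 to 3, against 14.5, 36.0 and 26.3 in wild-type replicates 1 to 3, so it too was high in mutant replicates 1 and 2.

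The closest matches of the other 4 genes were different ones. For Fgfr3 they were Stk38, a protein kinase gene (r = 0.999), and Flrt2, which encodes a leucine-rich membrane protein that interacts with FGF receptors (r = 0.996). For Ptch1 they were Myo18b (r = 0.994) and Tnrc6c (r = 0.993), and for Gli1 they were Id2, an inhibitor of helix-loop-helix transcription factors (r = 0.991), and Rere (r = 0.988). For Cilp they were the limb transcription factor gene Tbx5 (r = 0.980) and Gli1 itself (r = 0.971). These are the highest of many correlations over only 6 arrays that share the dim wild-type replicate 1, and between 11 and 246 probe sets reached r above 0.95 with each gene, so they describe likeness of profile only. After each array was centred on its median, r lay between 0.9595 and 0.9932 for the pairs named.

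**Figure D2:**
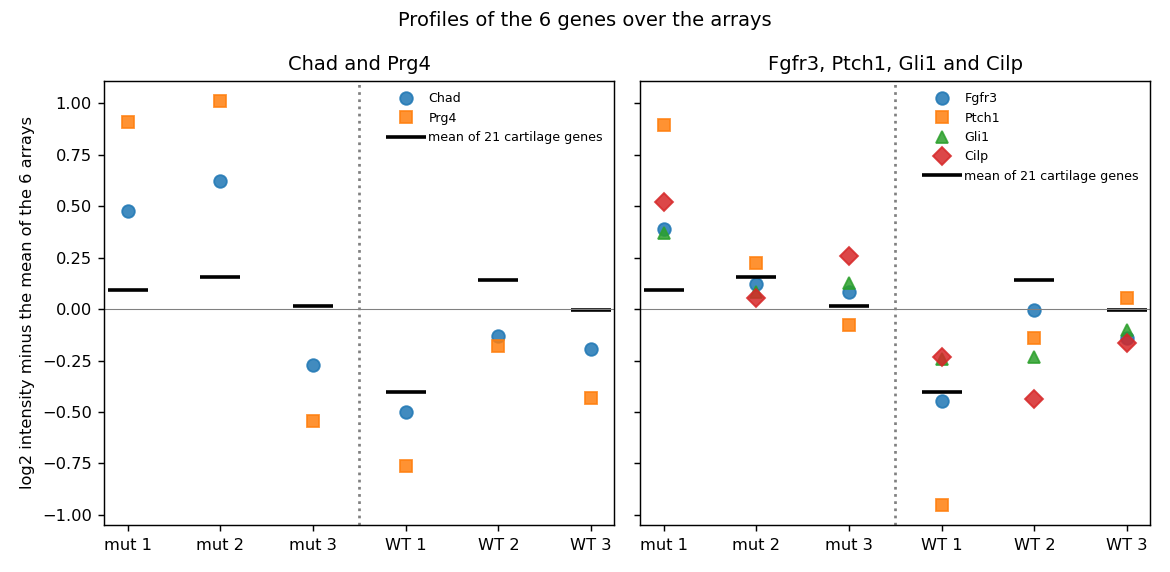
Log2 intensity of each gene minus its mean over the 6 arrays, for mutant (mut) and wild-type (WT) replicates 1 to 3, with Chad and Prg4 on the left and the other 4 genes on the right; black bars are the mean of 21 cartilage matrix genes. Chad and Prg4 are high in mutant replicates 1 and 2 and near the wild-type arrays in mutant replicate 3.

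The 6 genes were also read against other transcripts of cartilage, through the mean log2 level of 21 cartilage matrix and chondrocyte genes other than Chad. That mean stood at 0.09, 0.16 and 0.02 in mutant replicates 1 to 3 and at -0.40, 0.14 and -0.003 in wild-type replicates 1 to 3, relative to the mean of all arrays. Only wild-type replicate 1 was far from the others. Centring on these genes, a choice made after seeing the data, gave a median log2 difference over all probe sets of -0.13, against 0.04 as deposited. The log2 differences then were 0.74 for Prg4, 0.52 for Ptch1, 0.38 for Cilp, 0.37 for Chad, 0.22 for Fgfr3 and 0.21 for Gli1. All 6 kept their sign and none passed (limma adjusted p from 0.596 to 0.709). The groups stayed separate for Fgfr3 only, against 5.95% of all probe sets. Its gap was then very narrow, with mutant replicate 2 at -0.035 and wild-type replicate 1 at -0.046 relative to the mean of the arrays. After centring on the median of each array the groups were separate for Fgfr3, Gli1 and Cilp, against 9.7% of all probe sets.

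**Figure D3:**
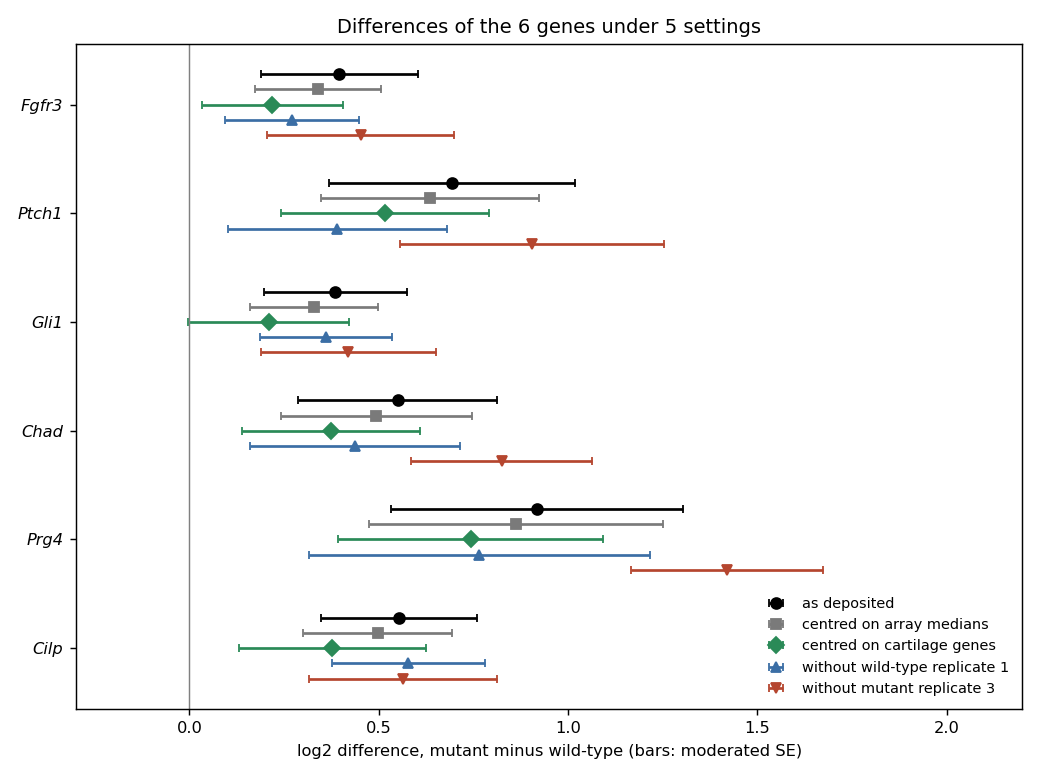
Log2 difference, mutant minus wild-type, of the 6 genes (points) with the moderated SE of limma (bars) as deposited, after 2 ways of centring and without wild-type replicate 1 or mutant replicate 3. All points lie above 0; the largest shift is that of Prg4, at 0.92 with all arrays and 1.42 without mutant replicate 3.

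Hedgehog signalling was measured through 15 of 24 listed genes, of which 0 passed in either direction. Means were higher in mutants for 11 and lower for 4, with a median log2 difference of 0.13 against 0.04 over all probe sets. Without wild-type replicate 1, 6 were higher and 9 lower, and after centring on the cartilage genes the counts were again 6 and 9. Over all probe sets the share with a higher mean was 56.7% as deposited, 44.7% without that array and 34% after that centring. The list counts moved in the same direction as these shares. The ligand gene Ihh had intensities of 29.0, 24.3 and 34.0 in mutant replicates 1 to 3, against 42.3, 31.5 and 45.4 in wild-type replicates 1 to 3. Its values were lower in mutants except that mutant replicate 3 lay above wild-type replicate 2, with a log2 difference of -0.45 and an interval from -0.95 to 0.06 (limma adjusted p = 0.708).

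Hhip, a decoy receptor induced by the signal like Ptch1 and Gli1, was at 33.3 ± 6.93 in mutants and 26.3 ± 6.22 in wild-type (SD, n = 3 each), a log2 difference of 0.34 with an interval from -0.20 to 0.89. Within arrays, the level of Gli1 relative to Ihh was higher in every mutant than in every wild-type array, by 0.83 on the log2 scale. An exact permutation test gave a two-sided p of 0.1, the smallest that 3 against 3 arrays can give, and 0.286 after Benjamini-Hochberg adjustment over 10 gene pairs chosen with their values known. The same contrast was 1.14 for Ptch1 and 0.79 for Hhip against Ihh, each with overlapping groups (exact permutation p = 0.2). Such a contrast within an array does not change with a constant factor between arrays. It can still depend on the background handling, which is not given, because Gli1, Hhip and Ihh are dim.

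The co-receptor gene Boc was at 96.4 ± 22.5 in mutants and 65.4 ± 21.3 in wild-type (SD, n = 3 each), a log2 difference of 0.58. Scube2, which helps release hedgehog ligands, was at 35.2, 33.9 and 36.9 in mutant replicates 1 to 3, against 27.2, 26.8 and 28.7 in wild-type replicates 1 to 3. These groups were separate, with a log2 difference of 0.36 (limma adjusted p = 0.708). Smo, which carries the signal across the membrane, differed by 0.13, and the co-receptor genes Cdon and Gas1 by 0.13 and -0.04. Gli3, which mostly acts as a repressor, differed by 0.13, and Sufu, the cytoplasmic inhibitor of the Gli factors, by -0.04. Each of these intervals includes 0, so neither a change nor its absence was shown.

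FGF signalling was measured through 15 of 29 listed genes, of which 0 passed in either direction, 8 had higher means and 7 lower means, with a median log2 difference of 0.10. Without wild-type replicate 1 the counts were 6 higher and 9 lower, and after centring on the cartilage genes 7 higher and 8 lower. The shares of all probe sets with a higher mean in these fits were 44.7% and 34%, against 56.7% as deposited. Among the receptors, Fgfr2 was at 121, 91.0 and 84.1 in mutant replicates 1 to 3, against 43.8, 89.2 and 59.0 in wild-type replicates 1 to 3. Its groups overlapped and its log2 difference was 0.67, larger than that of Fgfr3, with an interval from 0.04 to 1.30. The limma unadjusted p of Fgfr2 was 0.0401 and the adjusted p 0.667. Fgfr1 differed by 0.25 and Fgfrl1, a receptor that lacks the kinase, by 0.10. Within arrays, the contrast of Fgfr3 was 0.15 against Fgfr1 (exact permutation p = 0.2) and -0.27 against Fgfr2 (exact permutation p = 0.3), with overlapping groups in both cases.

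Fgf18, a ligand of Fgfr3 in the growth plate, had intensities of 28.9, 28.0 and 28.3 in mutant replicates 1 to 3, against 37.4, 31.3 and 31.5 in wild-type replicates 1 to 3. Every mutant array was below every wild-type array, as in 3.89% of all probe sets, with a log2 difference of -0.23 (limma adjusted p = 0.769). The level of Fgfr3 relative to Fgf18 was higher in every mutant than in every wild-type array, by 0.62 on the log2 scale (exact permutation p = 0.1, adjusted p = 0.286). Fgfr3 was higher and Fgf18 lower in every mutant array, so this separation and its p were fixed in advance. The pair was chosen with its values known, and the contrast adds no evidence to the values of the genes. Genes induced by FGF signals had differences of both signs. The phosphatase gene Dusp6, a feedback inhibitor, differed by -0.37, Spry2 by -0.26, Spry4 by -0.19 and Spry1 by -0.01, while Spred2 differed by 0.38, Spred1 by 0.29 and the transcription factor genes Etv1 and Etv5 by 0.39 and 0.26.

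**Figure D4:**
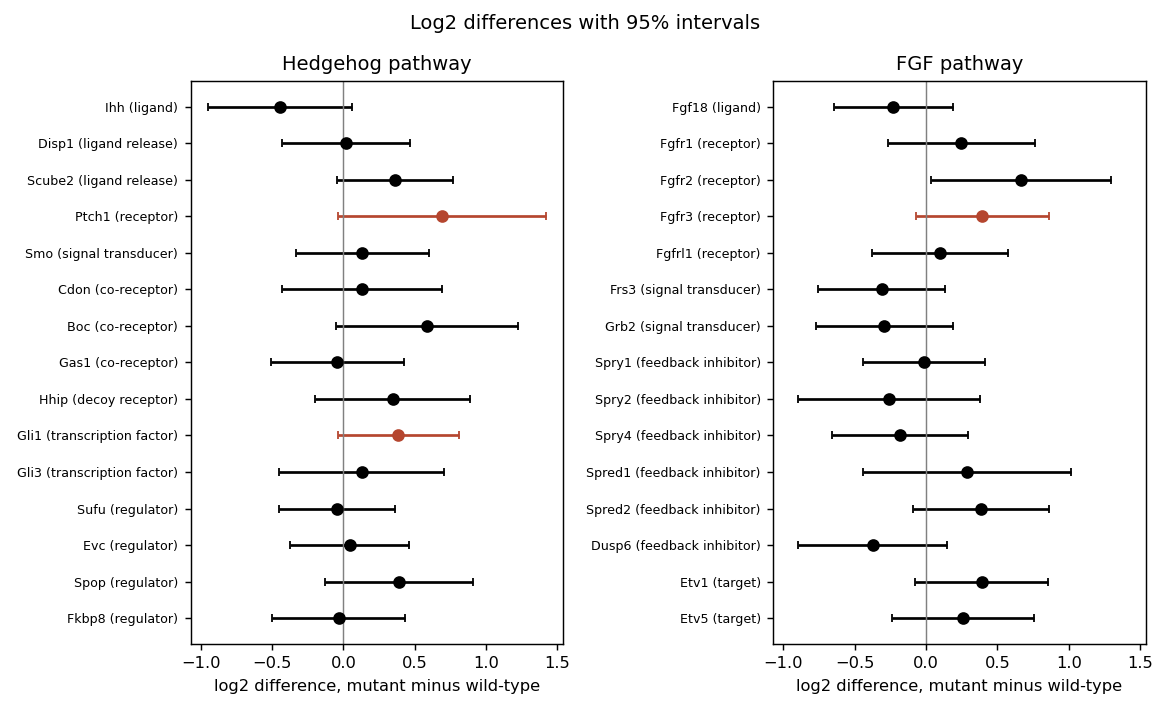
Log2 differences, mutant minus wild-type, of the measured hedgehog genes (left) and FGF genes (right), with 95% intervals of the limma fit; Ptch1, Gli1 and Fgfr3 are in red. Ihh and Fgf18 lie below 0 and Ptch1, Gli1 and Fgfr3 above it, with intervals that include 0 in all 5 cases. The interval of Fgfr2 lies above 0.

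Other signals that set the pace of the growth plate were measured through 4 of 9 listed genes, of which 0 passed, 3 had higher means in mutants and 1 lower. Their median log2 difference was 0.20. When wild-type replicate 1 was left out, 1 was higher and 3 lower, with a median of -0.09. Array weights gave the same counts and a median of -0.06. Of all probe sets, 44.7% and 46.2% had a higher mean in these fits, against 56.7% as deposited. Npr2, the receptor for C-type natriuretic peptide, which counters Fgfr3 in chondrocytes, was at 85.3, 72.1 and 75.6 in mutant replicates 1 to 3, against 44.4, 68.8 and 58.4 in wild-type replicates 1 to 3. The groups were separate, with a log2 difference of 0.46 (limma adjusted p = 0.691). Pth1r, the receptor for parathyroid hormone-related protein, differed by -0.01 with an interval from -0.65 to 0.63, Mef2c by 0.26 and Hdac4 by 0.14.

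The cartilage matrix and chondrocyte list had 22 of 23 genes measured. Of these 0 passed, 17 had higher means in mutants and 5 lower, with a median log2 difference of 0.11. But without wild-type replicate 1 the counts were 10 higher and 12 lower. Higher means were seen in 56.7% of all probe sets with all arrays and in 44.7% without that array. Col2a1 differed by 0.08, Col9a1, which decorates the fibrils of Col2a1, by 0.32, and Acan, the large aggregating proteoglycan, by 0.37. Chad relative to Col2a1 within arrays was higher in mutants by 0.47 with overlapping groups (exact permutation p = 0.2), and mutant replicate 3 again lay among the wild-type arrays.

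Cytl1, which encodes a small secreted protein that favours cartilage formation in mouse cells, had the smallest unadjusted p in the list. It was at 206, 186 and 133 in mutant replicates 1 to 3, against 74.3, 104 and 84.9 in wild-type replicates 1 to 3. The groups were separate and the log2 difference was 0.99 with an interval from 0.46 to 1.51 (limma adjusted p = 0.477). Cytl1 was lower in mutant replicate 3 than in the other mutants, as were Fgfr3, Ptch1, Chad and Prg4. In that array Cytl1 still lay above every wild-type array, while Chad and Prg4 lay among them. Hapln1, the link protein that holds aggrecan to hyaluronan, was at 152 ± 27.0 in mutants and 115 ± 34.8 in wild-type (SD, n = 3 each), a log2 difference of 0.44.

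The hypertrophic list had 10 of 12 genes measured, with 0 past the test, 6 higher and 4 lower. Without wild-type replicate 1 the counts were 4 higher and 6 lower. Among all probe sets 56.7% had a higher mean with all arrays and 44.7% without that array. Mmp13, the collagenase of hypertrophic cartilage, was at 685, 445 and 351 in mutant replicates 1 to 3, against 136, 269 and 295 in wild-type replicates 1 to 3, with separate groups. Col10a1, the collagen that marks hypertrophic chondrocytes, differed by 0.37, Ibsp by 0.36, and Phospho1, a phosphatase of mineralization, by -0.68 with an interval from -1.60 to 0.25.

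Prg4 and Cilp belong to a joint and articular surface list, of which 12 of 25 genes were measured. Of these 0 passed, 7 had higher means in mutants and 5 lower, and without wild-type replicate 1 the counts were 8 higher and 4 lower. Over all probe sets 56.7% had a higher mean with all arrays and 44.7% without that array. The median log2 difference of the joint list, 0.24, was 0.08 when wild-type replicate 1 was left out and 0.06 when mutant replicate 1 was. Cilp2, the sister gene of Cilp, was at 76.2, 63.2 and 81.9 in mutant replicates 1 to 3, against 57.4, 56.3 and 62.5 in wild-type replicates 1 to 3. Its groups were separate too, by a small gap, with a log2 difference of 0.32 (limma adjusted p = 0.723). The contrast of Cilp against Cilp2 within arrays was 0.23 (exact permutation p = 0.2).

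The contrast of Prg4 against Cilp was 0.36 with widely spread arrays (exact permutation p = 0.6). Relative to the mean of the 6 arrays it stood at 0.39, 0.96 and -0.80 in mutant replicates 1 to 3, against -0.53, 0.26 and -0.27 in wild-type replicates 1 to 3, with both the highest and the lowest value in mutants. Abi3bp, an extracellular matrix gene, was at 74.4, 74.1 and 90.1 in mutant replicates 1 to 3, against 40.2, 80.7 and 42.5 in wild-type replicates 1 to 3, with overlapping groups and a log2 difference of 0.62. Thbs4, a thrombospondin of tendon and joint tissue, differed by 0.16 with an interval from -0.51 to 0.82. Of the 2 measured transcription factor genes, named after their values were seen, Erg differed by 0.33 and Creb5 by -0.29. The other 4 genes with lower means were Cd44 at -0.31, Col22a1 at -0.17, Pdpn at -0.12 and Wnt9a at -0.04, likewise named after their values were seen.

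Chad belongs to the family of small leucine-rich proteoglycans, of which 13 of 17 genes were measured, with 0 past the test, 7 higher and 6 lower. The family's median log2 difference was 0.039, against 0.045 over all probe sets. Bgn and Fmod each differed by 0.20, Dcn by -0.04, Ogn by 0.58 and Lum by -0.30, each with an interval that includes 0. Chadl, which encodes a chondroadherin-like protein, differed by -0.0048 and was named after its value was seen.

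Cilp can bind TGF-beta and hinder IGF signalling in human cartilage, so ligands and receptors of both pathways were listed, and 16 of 18 were measured. Of these 0 passed, 15 had higher means in mutants and 1 lower, with a median log2 difference of 0.33. Without wild-type replicate 1 the counts were 10 higher and 6 lower and the median was 0.14. Higher means were seen in 56.7% of all probe sets with all arrays and in 44.7% without that array. Igf1r was at 147, 102 and 72.7 in mutant replicates 1 to 3, against 32.0, 71.5 and 53.7 in wild-type replicates 1 to 3, with barely separate groups and a log2 difference of 1.05 (limma adjusted p = 0.595). Tgfb3 was at 119 ± 5.87 in mutants and 79.6 ± 21.8 in wild-type (SD, n = 3 each) with separate groups, a log2 difference of 0.62, and Tgfbr3, a co-receptor, differed by 1.10 with overlapping groups. Igf2 differed by 0.06, Igf2r by 0.34 and Ccn2, a target of TGF-beta, by 1.05.

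**Figure D5:**
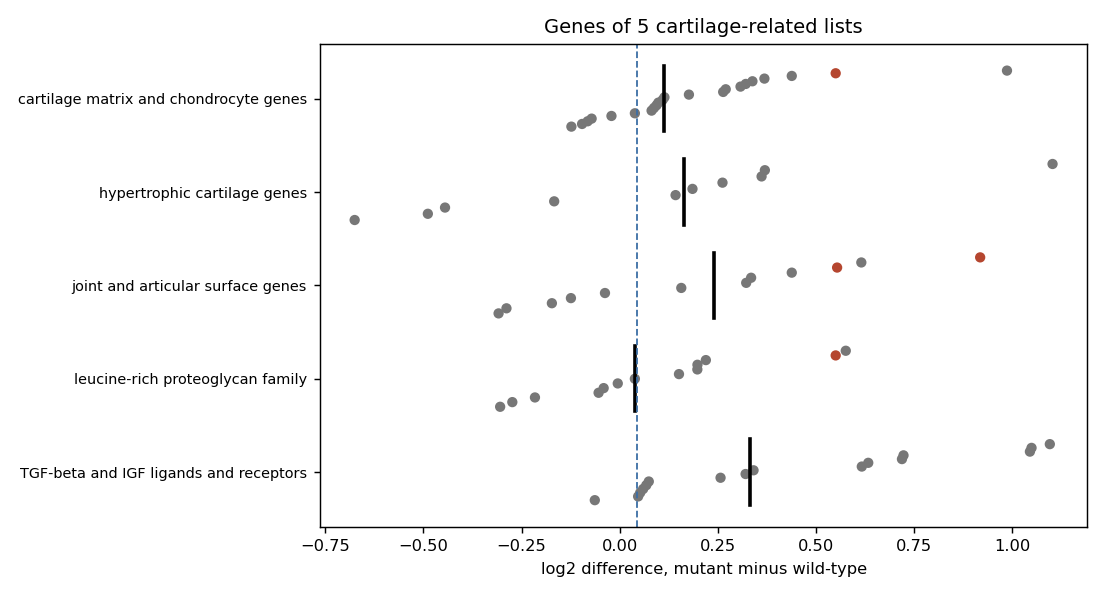
Log2 difference, mutant minus wild-type, of every measured gene (points) in 5 lists, with the median of each list (black bar), the median of all 8997 probe sets (dashed line) and Chad, Prg4 and Cilp in red. Medians run from 0.04 for the leucine-rich family to 0.33 for the TGF-beta and IGF list, and 0 genes passed the test.

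Markers of other tissues that a forearm sample can hold were read beside these genes. The summed intensity of the 5 measured osteoclast markers of 9 listed was 1269 to 1806 in mutants and 652 to 1120 in wild-type, with separate groups, and its part in the results was not tested. Summed tendon markers, 9 of 9 measured, ran from 2308 to 2903 in mutants and from 2074 to 2950 in wild-type. Fast muscle markers, 10 of 13 measured, ran from 4743 to 6016 in mutants and from 3685 to 7468 in wild-type. Summed epidermal markers, 6 of 10 measured, were at 75.3, 460.4 and 51.3 in mutant replicates 1 to 3. In wild-type replicates 1 to 3 they were at 1798, 1248 and 47.3, so the dim wild-type replicate 1 had the highest sum. All 6 had lower means in mutants, with a median log2 difference of -1.82, and 0 passed. With array weights 4 were higher and 2 lower, with a median of 0.16, and the part of epidermis in the results was not tested. The 12 measured cell division genes of 16 ran from 365 to 578 in mutants and from 523 to 783 in wild-type. All 12 of these cell division genes had lower means in mutants, with a median log2 difference of -0.39, and 0 passed. All 12 were also lower when wild-type replicate 1 was left out and after centring on the cartilage genes. When wild-type replicate 3 or mutant replicate 2 was left out, 11 of 12 were lower. Higher means were seen in 44.7% of all probe sets without wild-type replicate 1 and in 34% after that centring. The part of the cell division genes in the results was not tested. None of the measured markers was at 0.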

How the data were processed

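Total RNA was isolated on RNeasy columns and labelled with biotin for whole-transcript arrays, per the labels' protocols. The authors deposited intensities on a linear scale, 1 per probe set and array, and the background correction, summarisation and scaling are not given in the sources used here. Genes were named from the platform's annotation, and all 6 symbols matched the RefSeq table of GRCm38.p6 by Entrez identifier. Intensities were converted to log2 without further normalization and fitted in R 4.3.3 by limma 3.58.1 (lmFit, then eBayes), with 2 group means, two-sided tests and Benjamini-Hochberg adjustment over 8997 probe sets at a threshold of 0.05. The fit was tested on simulated data. A gene with several probe sets was represented by its brightest. All measured hedgehog, FGF and growth plate signal genes could be named, and in other lists the 3 brightest and the 3 of smallest p. The 2 probe sets of highest Pearson r were named for each gene. Promoters came from RefSeq. The genes and lists were chosen with earlier results of these data known. The number of arrays limits the precision. Python 3.11.15, pandas 2.3.3 and matplotlib 3.10.9 made tables and plots.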

Additional observations from a re-analysis of the deposited data

How the results depend on the processing

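All 6 genes kept a higher mean in mutants and stayed short of the threshold under every alternative that gave a value (15 for each gene, but 14 for Gli1, which was among the dimmest 25% of probe sets that one alternative leaves out). These were quantile normalization, median centring, log2 of the intensity plus 16, leaving out the dimmest 25%, array weights, robust variances with an intensity trend, the replicate block, averaging the probe sets of each gene, each array left out in turn and, chosen after seeing the data, centring on cartilage genes. Robust variances, the replicate block, the dim filter and probe set averaging could not alter the log2 difference of these genes, only its p-value. For Fgfr3, Gli1 and Cilp, whose groups are separate, leaving out an array could not reverse the sign either. The kept sign under those alternatives is therefore no added evidence. With arrays left out in turn the log2 difference ran from 0.27 to 0.49 for Fgfr3, 0.39 to 0.90 for Ptch1, 0.30 to 0.44 for Gli1, 0.38 to 0.82 for Chad, 0.64 to 1.42 for Prg4 and 0.43 to 0.67 for Cilp. The lowest adjusted p over all alternatives was 0.399, 0.437, 0.351, 0.248, 0.115 and 0.251 in the same order, and the highest was 0.983 for each. The number of probe sets called, 0 with all arrays, was 4 with array weights, 2 when the probe sets of each gene were averaged, and 0 to 15 with arrays left out in turn, the 15 without mutant replicate 3. Among probe sets at an unadjusted p under 0.05, 77.1% were higher in mutants, against 66% after median centring, 62.3% after quantile normalization, 43.6% with array weights and 39.9% after centring on cartilage genes. The replicate block called 0, with Cilp at 0.55 (limma adjusted p = 0.637). Same-numbered mutant and wild-type arrays had deviations that correlated at -0.107, -0.026 and 0.315, and differently numbered arrays at -0.421 to 0.338. With 3 arrays per group this cannot tell whether the numbers pair the samples. List medians moved by more than the spread between replicates in 6 of 285 values, and the cause was not tested. This count does not show stable medians, because that spread includes wild-type replicate 1 and some settings leave every log2 difference unchanged. Without that array the hedgehog (-0.02), FGF (-0.05), growth plate signal (-0.09), cartilage matrix (-0.04) and hypertrophic (-0.06) medians fell below 0 without counting as moved. The joint (0.08), leucine-rich (0.005) and TGF-beta and IGF (0.14) medians stayed above 0.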

Other observations

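Genes of other skeletal tissues were measured in the same samples. The perichondrium and periosteum list had 6 of 7 genes measured, 4 higher and 2 lower in mutants, and Postn, a matrix gene of the periosteum, was at 934 ± 80.1 in mutants and 735.6 ± 153 in wild-type (SD, n = 3 each), a log2 difference of 0.36. Among 9 tendon and ligament genes 5 were higher and 4 lower. The tendon transcription factor gene Mkx was at 39.0, 31.9 and 46.3 in mutant replicates 1 to 3, against 23.2, 30.2 and 28.5 in wild-type replicates 1 to 3, a log2 difference of 0.51 (limma adjusted p = 0.667), and Scx, another tendon transcription factor gene, differed by -0.55. The median of the tendon list was 0.15 with all arrays, -0.12 when wild-type replicate 3 was left out and -0.23 when mutant replicate 3 was. The osteoblast and bone matrix list had 9 of 11 genes measured, 7 higher and 2 lower in mutants, with a median log2 difference of 0.14. Without wild-type replicate 1 the counts were 4 higher and 5 lower and the median was -0.02. Of all probe sets 56.7% had a higher mean with all arrays and 44.7% without that array. Dmp1, which encodes a matrix protein of osteocytes, was at 71.7 ± 12.6 in mutants and 45.8 ± 19.0 in wild-type (SD, n = 3 each), a log2 difference of 0.73 (limma adjusted p = 0.671). Its groups were barely separate, with mutant replicate 3 at 62.3 and wild-type replicate 2 at 61.7. The 2 genes with lower means were Smpd3 at -0.65 and Sp7 at -0.17.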
